A study of Mus musculus with 17 samples.

Results

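The 50 genes described here belong to the cell cycle, and were taken as a named list of 23 genes of DNA replication and 27 genes of mitosis. Each of the 50 symbols matched 1 gene among the 31091 gene identifiers of the count table, and each had enough counts to be tested in every comparison. The replication genes comprise 6 that drive entry into S phase (Ccne1, Ccne2, Cdk2, E2f1, E2f2 and E2f8), 11 that load, hold back or activate the replicative helicase (Cdc6, Cdt1, Gmnn, Mcm2 to Mcm7, Mcm10 and Cdc45) and 6 of DNA synthesis and chromatin copying (Pcna, Rrm1, Rrm2, Tyms, Tk1 and Uhrf1). The mitotic genes comprise 6 drivers of G2 and mitosis (Ccna2, Ccnb1, Ccnb2, Cdk1, Foxm1 and Mybl2), 8 of the spindle and cytokinesis (Plk1, Aurka, Tpx2, Nusap1, Prc1, Kif11, Kif20a and Kif23) and 9 of the kinetochore and its checkpoint (Aurkb, Birc5, Bub1, Bub1b, Mad2l1, Ttk, Cenpa, Cenpe and Cenpf). The remaining 4 are Cdc20 and Ube2c, of the anaphase promoting complex, and Mki67 and Top2a, of the mitotic chromosome.

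Polyadenylated RNA was sequenced in bulk from splenic conventional dendritic cells (cDCs), which take up dead cells and present their antigens to T cells. The spleens came from female C57BL/6JRj mice that had been implanted with B16 melanoma cells secreting FLT3L, a growth factor that expands dendritic cells. CD11c+ splenocytes were cultured for 6 h before cDC1s and cDC2s were sorted. The study's protocol for this culture added GM-CSF so that more of these cells survived. In WT, the culture received medium of unmodified TC-1 cells, a C57BL/6 lung epithelial tumour line with HPV16 E6 and E7 and H-ras. In BimS, it received the medium, with all debris, of a TC-1-iBimS clone in which cumate induces the BH3-only protein BimS and thereby apoptosis. In RIPK3, it received that of a TC-1-iRIPK3 clone in which cumate induces the kinase RIPK3 and thereby necroptosis. All 3 TC-1 lines had been treated with cumate, and medium and CD11c+ cells were combined at equal cell numbers. There were 17 samples in 6 groups: 3 samples each of cDC1 WT, cDC1 BimS, cDC1 RIPK3, cDC2 WT and cDC2 BimS, and 2 of cDC2 RIPK3. In each experiment the study pooled spleens of more than 1 mouse, and no source used here says which samples came from separate pools, so p-values measure the spread between these samples, which may be technical.

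A cell that commits to division first releases E2F transcription factors, which switch on the genes of replication. The genes of mitosis follow in G2 under the MuvB complex with MYBL2 and FOXM1, which reaches many of their promoters through a short element, the cell cycle genes homology region (CHR), often near CCAAT boxes bound by NF-Y. Splenic cDCs arise from dividing precursors, and part of the mature population still cycles in tissue. In bulk RNA, fewer cycling cells and less of an mRNA per cell cannot be told apart.

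The promoters of the 50 genes were read from the RefSeq promoter table of build GRCm38.p6, which gives 250 bases before to 50 bases after each start. It held an entry for 42 of the 50 genes, 20 of replication and 22 of mitosis. Ccna2, Aurkb, Kif20a, Tpx2, Gmnn, Ccne2, Foxm1 and Mcm4 had none. The bases before the start are shown for the gene of each list with the smallest adjusted p in cDC1s with RIPK3 debris among those that hold the element of their kind. These were E2f8, a repressor of the E2F family (chr7:48881597-48881846, minus strand), and Mki67, the gene of the Ki-67 antigen (chr7:135716380-135716629, minus strand). Capitals mark E2F cores, CHR elements and CCAAT boxes on either strand, and in E2f8 the first bases of the E2F core are shared with a reverse CCAAT box.
E2f8: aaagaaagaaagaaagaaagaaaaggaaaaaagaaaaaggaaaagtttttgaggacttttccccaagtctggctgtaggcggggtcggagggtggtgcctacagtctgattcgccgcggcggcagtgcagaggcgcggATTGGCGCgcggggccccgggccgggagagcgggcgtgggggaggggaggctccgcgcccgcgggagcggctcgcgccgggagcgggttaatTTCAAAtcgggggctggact
Mki67: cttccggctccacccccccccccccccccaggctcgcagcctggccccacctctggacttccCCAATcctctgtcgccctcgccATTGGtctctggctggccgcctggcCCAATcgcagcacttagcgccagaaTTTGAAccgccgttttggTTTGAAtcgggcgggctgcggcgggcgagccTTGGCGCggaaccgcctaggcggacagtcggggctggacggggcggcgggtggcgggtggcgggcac

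In Mki67, CHR elements began 116 and 98 bases before the start and were preceded by 3 CCAAT boxes at 188, 166 and 141 bases before it. An E2F core stood 67 bases before it. E2f8 held an E2F core beginning 111 bases before the start, and a reverse CHR 20 bases before it. Windows of 30 bases show the E2F core, in capitals, in 4 replication genes, chosen from those with a value of their own in the comparisons: the origin loader Cdc6 (chr11:98908002-98908031, plus strand), the helicase subunit Mcm5 (chr8:75109349-75109378, plus strand), the ribonucleotide reductase subunit Rrm1 (chr7:102441617-102441646, plus strand) and Uhrf1 of DNA methylation maintenance (chr17:56303278-56303307, plus strand).
Cdc6: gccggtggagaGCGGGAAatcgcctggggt
Mcm5: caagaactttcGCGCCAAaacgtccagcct
Rrm1: aggagaactcgTTCCCGCcaggtccgcttt
Uhrf1: tgctttctcgcTTCCCGCcacagcgccagc

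The matching windows show the CHR, in capitals, in 4 mitotic genes: Cdk1, the kinase of mitotic entry (chr10:69352910-69352939, minus strand), Kif23, a kinesin of cytokinesis (chr9:61946780-61946809, minus strand), Cenpf of the kinetochore (chr1:189688067-189688096, minus strand) and Top2a, which untangles sister chromatids (chr11:99024195-99024224, minus strand).
Cdk1: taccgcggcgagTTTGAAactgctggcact
Kif23: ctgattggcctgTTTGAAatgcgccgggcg
Cenpf: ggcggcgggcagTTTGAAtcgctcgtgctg
Top2a: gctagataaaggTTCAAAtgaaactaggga

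The division into replication and mitotic genes, which was made by function, was also seen in these letters. An E2F core, searched on both strands as the letters TTCCCGC, or the letters TTGGCGC, or the letters TTCGCGC, or the letters TTGCCGC, was present in 14 of 23 replication promoters (60.9%) and in 3 of 23 mitotic promoters (13.0%), beside 9.57% of all 32851 promoters of the table. A CHR, searched as TTTGAA on both strands, was present in 4 of 23 replication promoters (17.4%) and in 16 of 23 mitotic promoters (69.6%), beside 17.9% of all promoters. CCAAT was present in 73.9% of replication, 82.6% of mitotic and 37.4% of all promoters. The 16 mitotic promoters with a CHR all held CCAAT as well, and so did the 4 replication promoters with a CHR. This combination was found in 6.95% of all promoters. In all 15 mitotic genes with a CHR, its nearest copy lay within 100 bases of the start. The nearest E2F core did so in 8 of 12 replication genes with that core. Matches of this kind are descriptions of the sequence, and factor binding was not measured.

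**Figure D1:**
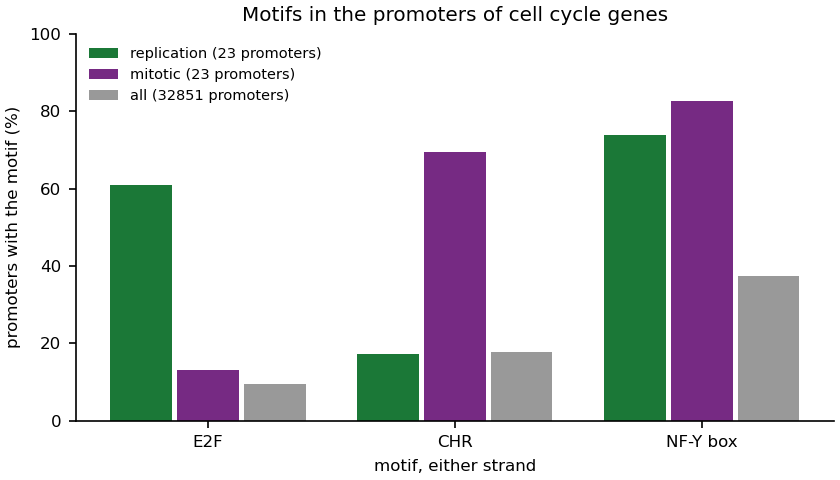
Share of promoters, in percent, that hold each motif on either strand, for replication genes (23 promoters), mitotic genes (23 promoters) and all promoters of the RefSeq table (32851); the third group of bars is the CCAAT box of NF-Y. E2F cores stood in 60.9% of replication and 13.0% of mitotic promoters, and the CHR in 17.4% and 69.6%.

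Between 16095159 and 21645289 reads per sample were counted on genes, with a median of 18986002. Levels are given as counts scaled to a common library size (CPM, counts per 1e+06 reads) after TMM scaling over the 17 samples. The sorted cells carried the markers of their labels: 8 cDC1 markers summed to between 1397 and 1725 CPM in cDC1s and between 98.8 and 132 CPM in cDC2s, and 7 cDC2 markers summed to between 2.33 and 4.02 CPM in cDC1s and between 286 and 374 CPM in cDC2s. By medium, the cDC1 markers summed in cDC1s to between 1549.9 and 1725 CPM in WT, 1440.3 and 1594 CPM in BimS and 1397 and 1469.9 CPM in RIPK3, so that every RIPK3 sample lay below every WT sample. Irf8, a transcription factor of cDC1s, was at 279 to 334 CPM in WT, 177 to 194 CPM in BimS and 167 to 184 CPM in RIPK3, whereas the chemokine receptor Xcr1 was at 148 to 159.9 CPM, 202 to 215 CPM and 211 to 236 CPM. The part of these shifts in the results was not tested. This sum leaves out an eighth listed marker, Cd300a, which cDC1s also expressed, at 37.2 to 40.4 CPM in WT, 71.2 to 76.6 CPM in BimS and 66.6 to 69.2 CPM in RIPK3. With it, the cDC2 markers summed to between 40.9 and 43 CPM in cDC1 WT, 75.2 and 79.4 CPM in BimS and 69.6 and 71.6 CPM in RIPK3. The full list was thus at a higher level in every cDC1 sample with debris than in WT, and its part in the results was not tested. In cDC2s the full list summed to between 429 and 511 CPM. RNA of TC-1 cells, which divide, could enter these counts through the debris. In cDC1s, 7 epithelial markers together summed to between 2.44 and 2.59 CPM in WT, 1.73 and 2.99 CPM in BimS and 2.06 and 2.98 CPM in RIPK3, with Cldn4 at 0 in all 9 samples. In cDC2s they summed to between 30.3 and 39.0 CPM in WT, 21.4 and 35.2 CPM in BimS and 18 and 25.3 CPM in RIPK3, nearly all from Cdh1. Markers of adherent mesenchymal cells, 10 in all, were higher in every cDC1 sample with debris than in any with WT medium, at 10.6 to 11.5 CPM in WT, 12.3 to 15.4 CPM in BimS and 13.1 to 15.4 CPM in RIPK3. Without Thbs1 these sums were 8.17 to 9.03 CPM, 9.18 to 9.83 CPM and 9.41 to 11.7 CPM, most of it Tpm2. Their part in the cDC1 results was not tested.

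In the WT samples both lists were expressed in both cell types, over a wide range. To order the genes, levels were divided by exon length over all annotated transcripts. This length can exceed that of the mRNA expressed, so the order is approximate. Per kilobase of exon, the sliding clamp Pcna led in cDC1s with a mean of 13.4 CPM per kb. The helicase subunit Mcm4 followed at 13.0 and Mki67 at 10.8, whereas the cyclin Ccne2 was lowest at 0.162. In cDC2s Mcm4 led at 20.1 CPM per kb, followed by Pcna at 17.5 and by the centromeric histone Cenpa at 8.15. Mki67 stood at rank 10 in that order, at 4.27, and the checkpoint kinase Ttk was lowest at 0.148.

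Both kinds of debris were accompanied by lower levels of mitotic genes in cDC1s, with smaller differences in replication genes as a list. The 6 genes of S phase entry leaned lower as well. Their median log2 fold change was -0.34 in BimS (6 negative) and -0.24 in RIPK3 (5 negative), with 1 called lower in each. For the helicase genes the medians were -0.068 and -0.091, and for the synthesis genes -0.070 and 0.070. Averaged over the 27 mitotic genes, the level on the log2 CPM scale was 3.14, 3.24 and 3.42 in the cDC1 WT samples. It was 2.72, 2.97 and 3.01 in BimS and 2.72, 2.94 and 3.08 in RIPK3, so that every debris sample lay below every WT sample. For the 23 replication genes the averages were 3.40, 3.46 and 3.55 in WT, 3.2, 3.32 and 3.42 in BimS and 3.19, 3.37 and 3.50 in RIPK3, and the range of either debris group overlapped that of WT. Within each replicate number the debris sample was the lower one for both lists. The differences in replication genes were -0.20, -0.14 and -0.14 for BimS and -0.21, -0.091 and -0.047 for RIPK3. In mitotic genes they were -0.41, -0.27 and -0.42 for BimS and -0.42, -0.30 and -0.35 for RIPK3. The mitotic average minus the replication average was -0.21 ± 0.071 (SD, n = 3) in cDC1 WT, -0.41 ± 0.064 (n = 3) in BimS and -0.44 ± 0.022 (n = 3) in RIPK3. Replicate 1 was the lowest of the 3 in each cDC1 group for both lists. No test was made on such averages, because the members were chosen with results known.

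In cDC2s the mitotic average was lower than in cDC1s with every medium. It was 2.38, 2.65 and 2.48 in WT, 2.18, 2.46 and 2.27 in BimS, and 2.05 and 2.48 in RIPK3, with overlap between the media. Within each replicate number the debris sample was nevertheless the lower one, by 0.19, 0.19 and 0.21 for BimS and by 0.32 and 0.17 for RIPK3. The replication averages were 3.09, 3.33 and 3.23 in cDC2 WT, 2.98, 3.21 and 3.13 in BimS, and 3.09 and 3.23 in RIPK3. Their differences within replicate numbers were -0.11, -0.12 and -0.10 for BimS and 0.0015 and -0.10 for RIPK3. The mitotic minus replication difference was -0.71 ± 0.033 (SD, n = 3) in cDC2 WT, -0.80 ± 0.052 (n = 3) in BimS and -0.90 ± 0.20 (n = 2) in RIPK3.

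**Figure D2:**
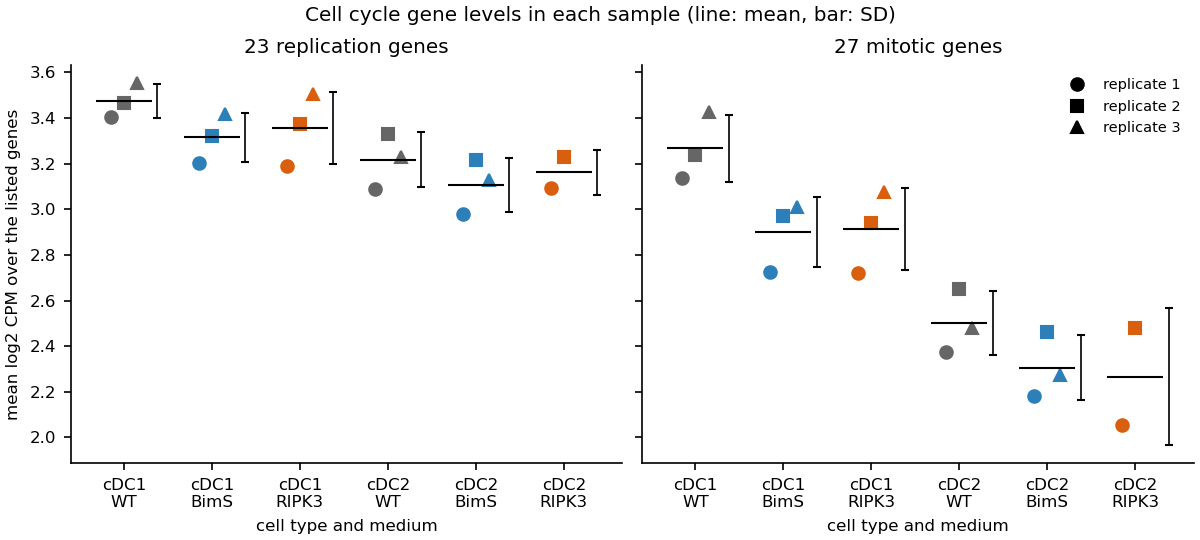
Mean log2 CPM over the 23 replication genes (left) and the 27 mitotic genes (right) in each of the 17 samples, by cell type and medium; symbols mark replicate numbers, lines the group means and bars the SD. For mitotic genes, the cDC1 debris samples lie between 2.72 and 3.08 and the cDC1 WT samples between 3.14 and 3.42.

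Among cDC1s exposed to apoptotic debris, the genes of mitosis that passed the test had all fallen. In the edgeR quasi-likelihood test with Benjamini-Hochberg adjustment at 0.05, 9 of 27 mitotic genes were lower in BimS than in WT and 0 were higher. Over all 19513 genes tested, 5.89% were called lower and 7.31% higher, or 13.2% in all. Of the 23 replication genes, 2 were lower and 1 was higher, a share of 13.0% that is near that background. The median log2 fold change was -0.32 over the mitotic genes and -0.12 over the replication genes, beside 0.0017 over all genes. A negative value was found for 26 of 27 mitotic and 19 of 23 replication genes. When the replicate number was included as a block, 15 mitotic genes were lower, and 4 replication genes were lower and 2 higher, with 8.51% of all genes called lower and 9.36% higher.

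The drivers of mitosis had the lowest median of the mitotic groups with apoptotic debris, at -0.48 on the log2 scale, and 3 of 6 fell. Foxm1, a transcription factor for late cell cycle genes, was at 3.49, 4.12 and 4.54 CPM in cDC1 WT and at 2.34, 2.38 and 2.37 CPM in BimS. The groups did not overlap, and Foxm1 fell by 0.78 ± 0.18 (SE) on the log2 scale (adjusted p = 0.00175). The cyclin gene Ccnb2 went from 2.89, 2.44 and 3.59 CPM to 1.78, 1.96 and 1.70 CPM (log2 fold change -0.71 ± 0.21, adjusted p = 0.0188). Ccna2, the cyclin of S phase and G2, went from 4.38, 4.58 and 5.93 CPM to 2.19, 4.11 and 2.84 CPM (-0.70 ± 0.19, adjusted p = 0.0117). Both cyclins were lower in each BimS sample than in any WT sample. Cdk1, Mybl2 and Ccnb1 did not pass the test, with log2 fold changes of -0.24, -0.27 and -0.27.

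Among the 8 spindle and cytokinesis genes, 4 fell with apoptotic debris. Kif23, a kinesin of the central spindle, was at 38.5, 39.8 and 43.1 CPM in cDC1 WT and at 31.7, 31.7 and 31.2 CPM in BimS (log2 fold change -0.36 ± 0.071, adjusted p = 0.000314). The spread of Kif23 within each group was small, and the groups lay well apart. Kif20a, another kinesin of cytokinesis, fell by 0.59 ± 0.18 (adjusted p = 0.0187), the microtubule bundling Prc1 by 0.54 ± 0.15 (adjusted p = 0.00937) and the spindle protein Nusap1 by 0.45 ± 0.13 (adjusted p = 0.0122). Polo-like kinase 1, Plk1, was at 7.47, 8.09 and 8.00 CPM in WT and at 7.59, 7.99 and 7.84 CPM in BimS, with a log2 fold change of -0.0081 ± 0.12 and adjusted p = 0.992. Kif11, Tpx2 and Aurka had values of -0.32, -0.27 and -0.22 and did not pass the test.

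At the kinetochore, 2 of 9 genes fell with apoptotic debris. These were Cenpe, the kinetochore motor, with -0.55 ± 0.15 on the log2 scale (adjusted p = 0.0358), and Cenpf with -0.66 ± 0.21 (adjusted p = 0.0341). Cenpe was at 22.3, 23.5 and 29.0 CPM in WT and at 14.1, 18.6 and 18.5 CPM in BimS. Cenpf values overlapped, at 3.04, 4.02 and 5.48 CPM in WT and 2.29, 3.41 and 2.22 CPM in BimS. Cenpa was the only mitotic gene with a positive value, 0.093 ± 0.060 (adjusted p = 0.400). Aurkb (-0.37), Birc5 (-0.14), Bub1 (-0.33), Cdc20 (-0.41) and Ube2c (-0.17) did not pass the test.

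Mki67 and Top2a, both of the mitotic chromosome, were read differently with and without the replicate block. Mki67 was at 103, 109 and 121 CPM in cDC1 WT and at 81.7, 97.6 and 103 CPM in BimS, with a log2 fold change of -0.24 ± 0.077 and adjusted p = 0.0514. Within each replicate number BimS was the lower sample, and with the block the adjusted p was 2.15e-05. Top2a was at 56.5, 69.9 and 66.8 CPM in WT and at 45.7, 53.9 and 58.9 CPM in BimS (-0.29 ± 0.18, adjusted p = 0.435, and 2.07e-05 with the block). The block also added Kif11 (adjusted p = 0.00123), Bub1b (0.00425), Tpx2 (0.00652) and Mad2l1 (0.0221), all with negative values.

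The replication genes that passed the test with apoptotic debris moved in opposite directions. Pcna, the clamp that holds DNA polymerase on its template, was at 30.3, 31.0 and 34.9 CPM in cDC1 WT and at 34.9, 40.2 and 39.2 CPM in BimS, and rose by 0.25 ± 0.074 (adjusted p = 0.0188). Cdt1, which loads the Mcm helicase, was at 14.3, 15.8 and 15.2 CPM in WT and at 11.0, 11.6 and 13.4 CPM in BimS (-0.33 ± 0.10, adjusted p = 0.0257). E2f8 was at 4.13, 4.17 and 5.57 CPM in WT and at 2.34, 3.18 and 3.56 CPM in BimS (-0.62 ± 0.20, adjusted p = 0.0333). The remaining 20 replication genes did not pass the test. Among the Mcm genes the values ran from -0.24 for Mcm10 to 0.16 for Mcm5, and with the block Mcm5 was called higher (adjusted p = 0.0257) while Mcm7 (0.0134) and Ccne1 (0.0390) were called lower.

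These counts depended on single libraries. For BimS against WT in cDC1s, the 9 mitotic genes became 2 without WT replicate 3 and 3 without BimS replicate 1, and the 3 replication genes became 1 without WT replicate 2, 1 without WT replicate 3 and 0 without BimS replicate 2. Foxm1 and Kif23 passed the test whichever sample was left out.

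With necroptotic debris, 12 of 27 mitotic genes were lower in cDC1s than with WT medium and 0 were higher, again by the edgeR test. DESeq2 called 9 lower and limma 14, with 0 higher by either, where limma called 1981 of 19513 genes lower. By edgeR the background was 8.19% of 19513 genes called lower and 8.34% called higher, or 16.5% in all. Of the 23 replication genes, 3 were lower and 0 were higher. This is 13.0%, below the 16.5% of all genes called but above the 8.19% called lower. The median log2 fold change was -0.38 over the mitotic and -0.091 over the replication genes, beside -0.0056 over all genes, and 26 of 27 mitotic but 13 of 23 replication genes had negative values. With the replicate block 14 mitotic genes were lower, and 7 replication genes were lower and 1 higher, where 10.7% of all genes were called lower and 10.3% higher. The comparisons of BimS and of RIPK3 with WT share their 3 WT samples, so their values are given side by side and are not independent.

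The kinetochore group had the lowest median with necroptotic debris among the groups of more than 2 mitotic genes, -0.42 on the log2 scale, and 4 of its 9 genes fell. Cenpf was at 1.92, 2.66 and 1.78 CPM in RIPK3, below each of the WT samples given above, and fell by 0.98 ± 0.22 (adjusted p = 0.00166), which is a decrease of 49.2%. Cenpe was at 13.7, 14.7 and 19.3 CPM and fell by 0.66 ± 0.15 (adjusted p = 0.0120). Bub1, a checkpoint kinase, was at 4.08, 4.58 and 4.18 CPM in WT and at 2.02, 3.11 and 3.8 CPM in RIPK3 (-0.53 ± 0.18, adjusted p = 0.0424). Cenpa was at 81.8, 95.1 and 86.0 CPM in WT and at 75.1, 80.7 and 70.8 CPM in RIPK3 (-0.21 ± 0.061, adjusted p = 0.0114). In each of these genes the RIPK3 samples lay below those of WT. The share of all genes whose groups lay apart in this way was not computed.

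Mki67 was at 77.7, 81.2 and 84.5 CPM in cDC1 RIPK3, all below the 103, 109 and 121 CPM of WT, and fell by 0.45 ± 0.078 on the log2 scale (adjusted p = 0.000331), a decrease of 27%. Top2a was at 38.3, 47.5 and 59.1 CPM and did not pass the test (-0.42 ± 0.18, adjusted p = 0.202), while with the block its adjusted p was 6.54e-10. Among the drivers, Ccna2 (-0.64 ± 0.19, adjusted p = 0.0198), Foxm1 (-0.49 ± 0.17, adjusted p = 0.0462) and Cdk1 (-0.36 ± 0.13, adjusted p = 0.0438) fell. Cdk1 was at 9.32, 11.0 and 11.1 CPM in WT and at 6.47, 8.23 and 9.84 CPM in RIPK3, with overlap.

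Of the 8 spindle genes 4 fell with necroptotic debris. Kif23 was at 30.2, 30.2 and 36.1 CPM in RIPK3 (-0.33 ± 0.071, adjusted p = 0.000632), again below each WT sample. Prc1 fell by 0.47 ± 0.15 (adjusted p = 0.0247), Kif11, the kinesin that separates the spindle poles, by 0.45 ± 0.13 (adjusted p = 0.0282) and Nusap1 by 0.44 ± 0.13 (adjusted p = 0.0134). Plk1 was at 8.14, 7.13 and 8.92 CPM and was the only mitotic gene with a positive value, 0.034 ± 0.12 (adjusted p = 0.904). Aurkb (-0.42, adjusted p = 0.0862, and 0.0489 with the block), Cdc20 (-0.26), Ube2c (-0.20) and Ccnb1 (-0.13) did not pass the test.

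The 3 replication genes that fell with necroptotic debris were E2f8, Mcm7 and Gmnn, and none of the 6 synthesis genes passed the test. DESeq2, and edgeR with RLE size factors, each called 2 replication genes lower. E2f8 was at 1.77, 3.31 and 3.22 CPM in RIPK3 and fell by 0.75 ± 0.20 (adjusted p = 0.00768), with each sample below WT. Mcm7 was at 26.6, 27.2 and 33.5 CPM in WT and at 20.1, 23.9 and 25.9 CPM in RIPK3 (-0.33 ± 0.092, adjusted p = 0.0131). Gmnn, the inhibitor of Cdt1, was at 16.2, 13.2 and 15.6 CPM in WT and at 13.3, 10.8 and 12.3 CPM in RIPK3, with overlap (-0.30 ± 0.11, adjusted p = 0.0495). Pcna had a value of 0.16 ± 0.075 (adjusted p = 0.146, and 0.0431 with the block). The block also called E2f1 (adjusted p = 0.0379), E2f2 (0.0328), Mcm10 (0.00615) and Cdt1 (0.0180), all lower. The values of Mcm2 (0.14), Mcm5 (0.075), Cdc6 (0.069), Tyms (0.021), Rrm2 (0.014), Uhrf1 (0.12) and Ccne1 (0.014) did not pass the test.

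Over the 9 cDC1 samples the activating factor E2f1 was at 6.73, 6.05 and 6.65 CPM in WT, at 4.43, 5.42 and 5.83 CPM in BimS and at 4.25, 5.12 and 5.75 CPM in RIPK3. All debris samples lay below WT, but neither comparison passed the test (-0.31, adjusted p = 0.173, and -0.37, adjusted p = 0.0795). Ccne1, the other E-type cyclin, was at 2.94, 2.65 and 2.79 CPM in WT and at 2.14, 1.68 and 1.86 CPM in BimS (-0.56, adjusted p = 0.0648). In RIPK3 it was at 2.43, 3.41 and 2.59 CPM, around the WT values. Cdc6 ranged from 4.90 to 6.07 CPM, Mcm2 from 11.4 to 18 CPM, Mcm6 from 40.1 to 50.1 CPM, Tyms from 5.35 to 7.42 CPM and Uhrf1 from 4.40 to 6.98 CPM, with overlap between the media.

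For RIPK3 against WT in cDC1s, the 12 mitotic genes became 7 without WT replicate 2, 5 without WT replicate 3, 6 without RIPK3 replicate 1 and 5 without RIPK3 replicate 2. The 3 replication genes became 0 without WT replicate 3, 1 without RIPK3 replicate 1 and 7 without RIPK3 replicate 3. Cenpf, Mki67 and Kif23 passed the test whichever sample was left out. The summed level of 6 macrophage markers was between 3.05 and 5.93 CPM in cDC1 WT, 1.26 and 2.50 CPM in BimS and 2.48 and 3.74 CPM in RIPK3. Sums of other marker lists also lay lower in cDC1s with debris. The 4 markers of plasmacytoid dendritic cells were at 60.51 to 66.0 CPM in WT, 54.2 to 57.1 CPM in BimS and 55.3 to 60.49 CPM in RIPK3, with the defining Siglech at most at 0.230 CPM. The 3 plasma cell markers, with Jchain at most at 1.01 CPM, were at 336 to 359.9 CPM, 306 to 327 CPM and 307 to 325 CPM. B cell markers in BimS (0.356 to 0.825 CPM, against 0.847 to 1.21 in WT), melanocyte markers in BimS (0.0935 to 0.155 against 0.199 to 0.359) and T and NK cell markers in RIPK3 (0.230 to 0.354 against 0.359 to 0.661) lay below WT near 0. The part of these lists in the results was not tested.

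**Figure D3:**
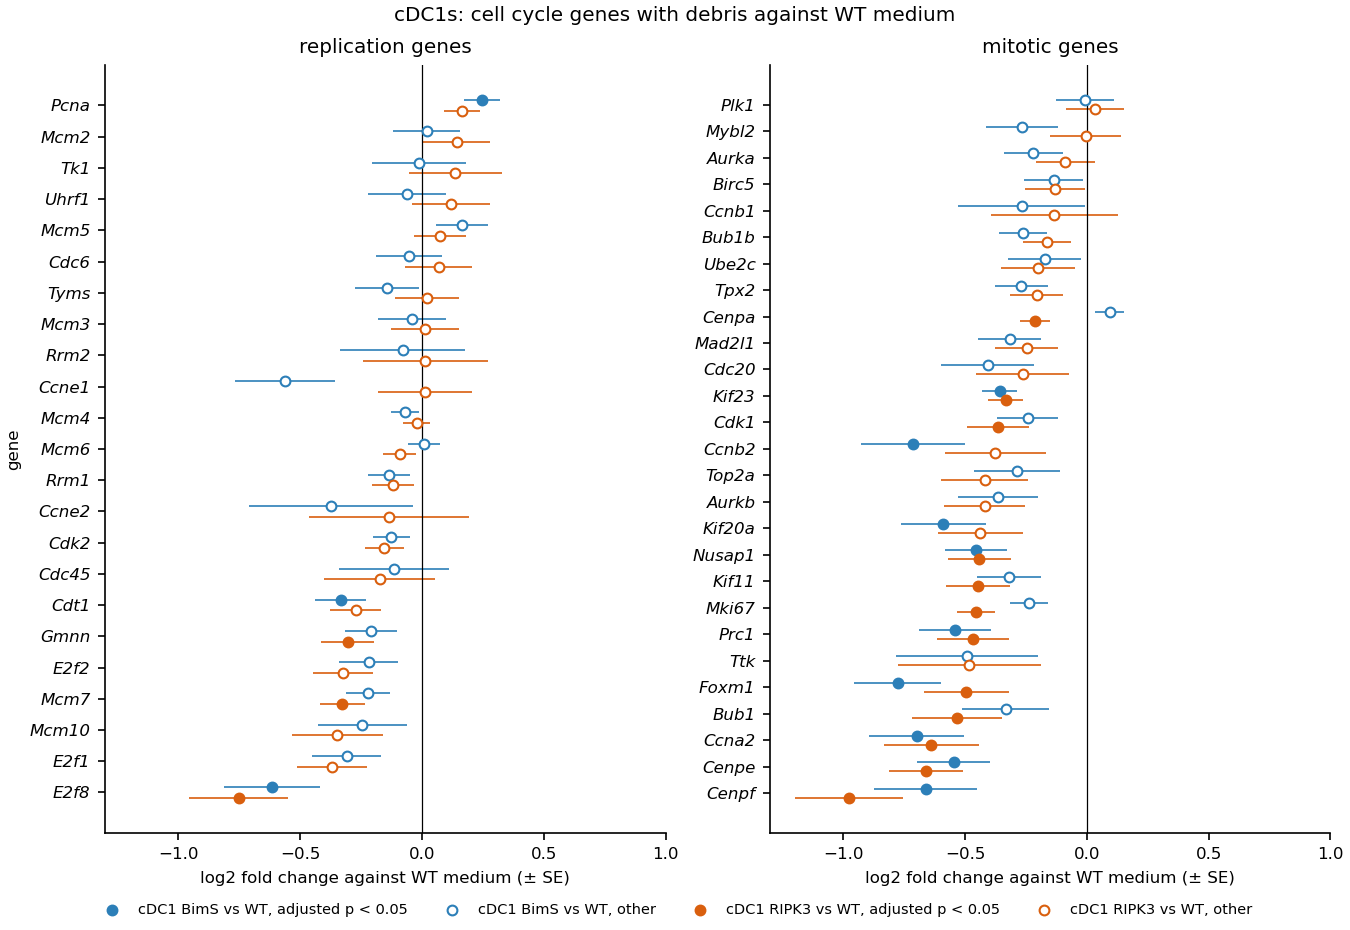
Log2 fold change (± SE) of each replication gene (left) and mitotic gene (right) in cDC1s, for BimS and RIPK3 debris against WT medium; filled points have an adjusted p under 0.05. The mitotic values lie to the left of 0 for 26 of 27 genes with either debris, with Cenpa (BimS) and Plk1 (RIPK3) as the exceptions.

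Compared directly, cDC1s with necroptotic and with apoptotic debris differed in 1 of the 50 genes. Cenpa was at 90.8, 99.6 and 89.9 CPM in BimS and at 75.1, 80.7 and 70.8 CPM in RIPK3, and was lower in RIPK3 by a log2 fold change of -0.31 ± 0.061 (adjusted p = 0.00153), a decrease of 19.2%. The groups lay apart, and Cenpa passed the test whichever sample was left out. Over all genes 2.21% were called lower and 1.94% higher, or 4.15% in all. None of the 23 replication genes was called by edgeR, DESeq2 or limma (0 by each), and 1, Ccne1, had an unadjusted p under 0.05. Mki67 had a value of -0.22 (adjusted p = 0.159), and with the block it was the second mitotic gene called (adjusted p = 0.000785), where 4.79% of all genes were called lower and 4.07% higher, or 8.87% in all. The mitotic count also became 2 without BimS replicate 1.

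In cDC2s the genes that passed the test with debris were replication genes, in both directions. With apoptotic debris, 2 of 23 replication genes were higher and 1 was lower by edgeR, where 3.8% of 19239 genes were called higher and 3.21% lower, or 7.01% in all. Ccne2, an E-type cyclin that activates Cdk2 at the start of S phase, was at 2.36, 1.72 and 1.46 CPM in cDC2 WT and at 4.81, 4.32 and 3.22 CPM in BimS. These values rest on between 27 and 46 reads in WT and between 54 and 85 reads in BimS, and the groups did not overlap. Ccne2 rose by 1.15 ± 0.25 on the log2 scale (adjusted p = 0.00502), which is 2.22-fold. Mcm5 was at 39.4, 45.4 and 42.6 CPM in WT and at 54.4, 56.7 and 61.3 CPM in BimS (0.44 ± 0.090, adjusted p = 0.00367). Cdt1 was at 11.3, 12.0 and 14.4 CPM in WT and at 6.27, 8.13 and 8.47 CPM in BimS (-0.72 ± 0.14, adjusted p = 0.00296). All 3 genes passed the test whichever sample was left out, while limma called 1 replication gene higher and 1 lower in this comparison.

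No mitotic gene was called in cDC2s with apoptotic debris. The count was 0 of 27 by edgeR, by DESeq2 and by limma, and 3 had an unadjusted p under 0.05. The median log2 fold change was -0.12 for the mitotic and also for the replication genes, beside -0.019 for all genes, and the mitotic count became 1 without WT replicate 1. With the replicate block, 5 mitotic genes were called lower, namely Ube2c (adjusted p = 0.00135), Aurkb (0.0121), Nusap1 (0.0271), Kif11 (0.0320) and Tpx2 (0.0431), and the replication genes Gmnn (0.00736), Mcm7 (0.00114) and Cdk2 (0.0201) were called lower as well. The block called 10.3% of all genes lower and 11% higher in this comparison, or 21.3% in all, so its additions are read against a higher background. Mki67 was at 40.1, 54.5 and 37.1 CPM in cDC2 WT and at 36.3, 52.3 and 40.4 CPM in BimS, and the difference on the log2 scale was -0.028 ± 0.19 (adjusted p = 0.970).

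With necroptotic debris, Ccne2 was the only one of the 50 genes called in cDC2s by edgeR without the replicate block. DESeq2, and edgeR with RLE size factors, called Mcm5 as well, and limma called 1 replication gene higher and 2 lower. Ccne2 was at 6.27 and 3.75 CPM, from 64 to 97 reads, and rose by 1.41 ± 0.27 (adjusted p = 0.00145), where 3.93% of all genes were called higher, 3.28% lower and 7.21% in all. Without RIPK3 replicate 1, which leaves 1 sample assumed to vary like the other groups, the value was 1.01 with adjusted p = 0.111 and 0 replication genes were called, and without WT replicate 3 there were 2. Mcm5 was at 51.5 and 55.7 CPM, above the 3 WT samples, with 0.33 ± 0.10 (adjusted p = 0.0534, and 4.71e-06 with the block). Of the mitotic genes 3 of 27 were called by limma, which called 1600 of 19239 genes, 1236 of them lower. By edgeR and by DESeq2 0 of 27 were called, and 3 had an unadjusted p under 0.05 by edgeR. The number called by edgeR became 1 without WT replicate 3. The lowest mitotic value was that of Cenpf, at 2.57, 3.04 and 2.81 CPM in WT and 1.03 and 2.05 CPM in RIPK3 (-0.85 ± 0.28, adjusted p = 0.0772).

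With the block, 6 mitotic genes were called lower in cDC2s with necroptotic debris, where 11.4% of all genes were called lower. These were Cenpf (adjusted p = 0.00812), Cenpe (0.000541), Top2a (0.00622), Mki67 (0.00943), Cenpa (0.0187) and Kif11 (0.0355). Of the replication genes the block called 6 lower (Cdk2, Gmnn, Mcm6, Mcm7, Cdt1 and Rrm2, with adjusted p from 0.00314 to 0.0498) and 2 higher (Ccne2 and Mcm5). The summed level of 10 markers of adherent mesenchymal cells, almost all of it Thbs1, was between 50.8 and 57.1 CPM in cDC2 WT, 137 and 165 CPM in BimS and 139 and 149 CPM in RIPK3. The T and NK cell markers were at 1.08 to 1.23 CPM in cDC2 WT, 0.477 to 0.973 CPM in BimS and 0.776 to 0.820 CPM in RIPK3, and the neutrophil markers at 1.66 to 3.13 CPM, 0.835 to 1.34 CPM and 1.29 to 1.42 CPM. In RIPK3 alone, the plasmacytoid markers (173 to 175 CPM against 192 to 216 in WT) and the 7 cDC2 markers (286 to 321 CPM against 326 to 374) also lay below WT. The part of these lists in these differences was not tested, and Col1a1, Col1a2 and Col3a1 were at most 0.179 CPM in every sample.

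The other genes followed throughout are given for cDC2s in the order WT, BimS and RIPK3, and none of those named here passed the edgeR test without the replicate block. With it, Aurkb was called lower in BimS (adjusted p = 0.0121), and Top2a (0.00622), Mcm6 (0.0236) and Rrm2 (0.0498) in RIPK3, where the block called 21.4% of all genes. Plk1 was at 1.85, 2.7 and 2.97 CPM, at 2.01, 2.90 and 2.80 CPM and at 1.94 and 4.04 CPM. Cdk1 was at 2.87, 3.21 and 2.05 CPM, at 2.13, 2.54 and 2.80 CPM and at 1.10 and 2.46 CPM. The groups overlapped for both kinases. Aurkb, of the chromosome passenger complex, was at 2.62, 3.44 and 3.35 CPM, at 1.95, 2.34 and 1.73 CPM and at 1.10 and 3.16 CPM, so that its BimS group alone lay below WT. Cdc20 ranged from 1.29 to 3.38 CPM, Ccnb1 from 0.864 to 1.22 CPM and Top2a from 48.7 to 67.8 CPM over the 8 samples. Among replication genes, Pcna was at 39.3, 41.6 and 45.1 CPM, at 40.9, 40.7 and 42.4 CPM and at 40.4 and 39.0 CPM, with log2 fold changes of -0.025 and -0.091 against its rise in cDC1 BimS. E2f1, an activating E2F, ranged from 2.00 to 3.56 CPM, Uhrf1 from 7.75 to 10.3 CPM and Mcm2 from 7.91 to 14.0 CPM. The values of Cdc6 (-0.085 and 0.26), Ccne1 (-0.21 and -0.32), Mcm6 (-0.12 and -0.22) and Rrm2 (-0.77 and -0.87) for BimS and RIPK3 did not pass the test without the block.

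Between necroptotic and apoptotic debris, 0 of the 50 genes were called in cDC2s by edgeR, DESeq2 or limma, beside 0.379% of all genes by edgeR. Tyms, thymidylate synthase, was the only one with an unadjusted p under 0.05, at 6.45, 6.05 and 6.86 CPM in BimS and at 8.08 and 8.15 CPM in RIPK3 (adjusted p = 0.566). With the block Cdt1 was called higher (adjusted p = 0.0420) and Mki67 lower (adjusted p = 0.0439) in RIPK3, where 5.92% of all genes were called higher and 8.4% lower, or 14.3% in all.

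**Figure D4:**
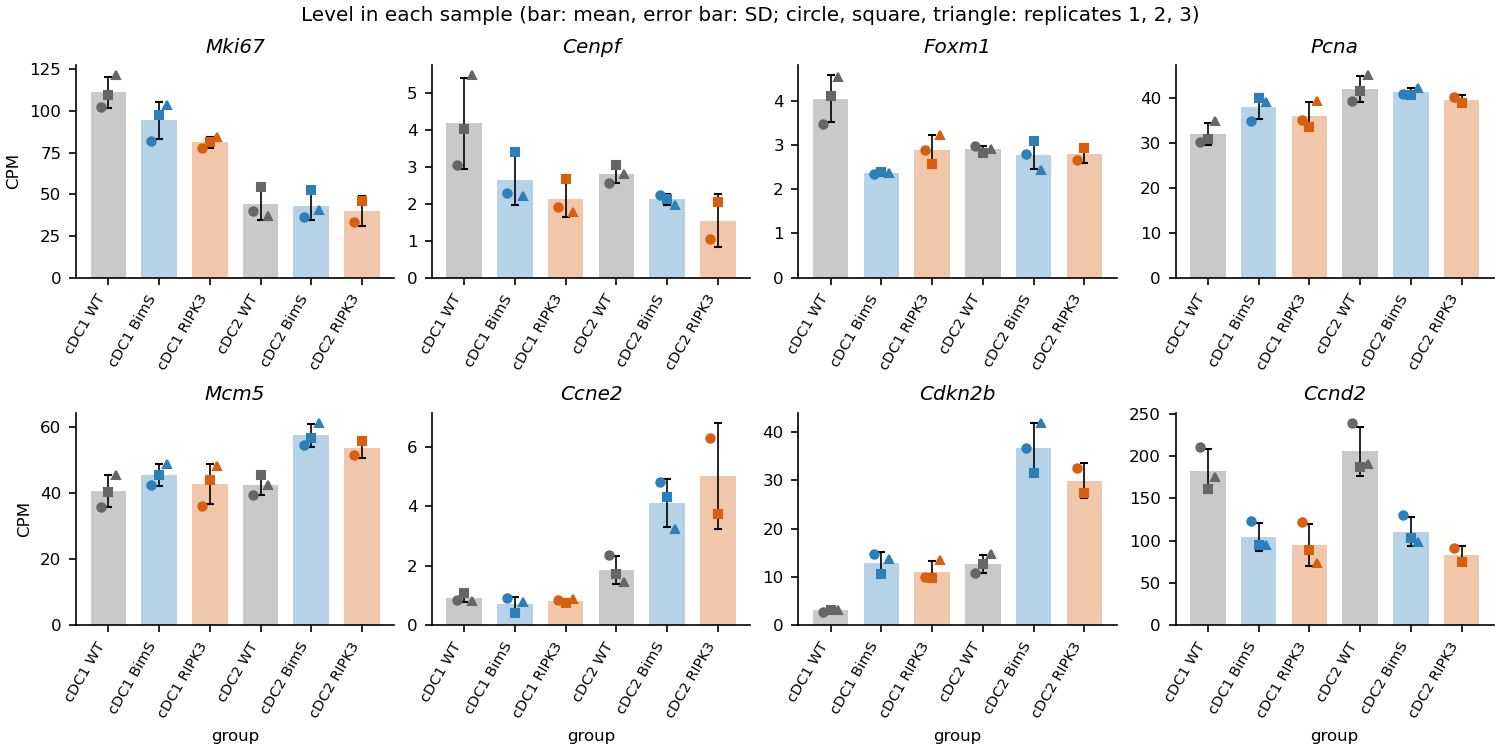
CPM in each sample of Mki67, Cenpf, Foxm1, Pcna, Mcm5, Ccne2 and of the G1 genes Cdkn2b and Ccnd2, by cell type and medium; bars are means, error bars the SD and symbols the replicate numbers. Mki67 runs from 103 to 121 CPM in cDC1 WT and from 77.7 to 84.5 CPM in cDC1 RIPK3, and Ccne2 stays at or under 1.07 CPM in cDC1s while reaching 6.27 CPM in cDC2s.

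Whether the response to debris differed between cDC1s and cDC2s was tested as an interaction over the 17 samples. None of the 50 genes passed that test, for BimS against WT, RIPK3 against WT or RIPK3 against BimS, where 0.87%, 1.14% and 0.0314% of 19082 genes did. Unadjusted p-values under 0.05 were found for 4, 1 and 0 replication genes and for 3, 0 and 0 mitotic genes. DESeq2 called 1, 1 and 0 replication genes and limma 0 of any. The median interaction of the mitotic genes, cDC1 minus cDC2, was -0.21 for BimS and -0.18 for RIPK3. A fall that passed the test in cDC1s alone is therefore not shown to be particular to cDC1s, and for RIPK3 the median was -0.39 without cDC2 RIPK3 replicate 1 and 0.067 without cDC2 RIPK3 replicate 2. The signs in the separate fits were negative in both cell types for 24 of 27 mitotic genes with BimS and for 23 of 27 with RIPK3.

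Ccne2 came nearest to a difference between the cell types in its response. In cDC1s it was at 0.847, 1.07 and 0.809 CPM in WT, 0.917, 0.421 and 0.773 CPM in BimS and 0.860, 0.753 and 0.863 CPM in RIPK3, and did not pass the test (adjusted p = 0.591 and 0.864). The interaction was -1.52 ± 0.42 for BimS (adjusted p = 0.0906) and -1.56 ± 0.43 for RIPK3 (adjusted p = 0.0770). With the replicate block these became 0.0174 and 0.0279, where 2.32% and 2.35% of all genes were called, and 0.141% for RIPK3 against BimS, and with DESeq2 0.0413 and 0.0376. Leaving out single samples gave adjusted p-values between 0.0364 and 0.278 for BimS and between 0.0322 and 0.412 for RIPK3, under 0.05 without cDC2 WT replicate 1 in either and without cDC2 RIPK3 replicate 2 in the latter.

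Across media, the cell types themselves differed in most of the 50 genes. The edgeR fit of cell type with medium as a further term called 21 of 27 mitotic genes higher in cDC1s and 1 lower, beside 30.4% and 29.4% of all 19082 genes and 59.8% in all. Of the 23 replication genes 13 were higher in cDC1s and 8 were lower. The median log2 fold change was 0.59 for the mitotic and 0.38 for the replication genes, against 0.029 for all genes. The total of cell cycle RNA thus did not shift as one: the summed level of the mitotic genes was between 467 and 546 CPM in cDC1 WT and between 329 and 379 CPM in cDC2 WT, whereas that of the replication genes was between 397 and 451 CPM and between 432 and 464 CPM.

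The mitotic genes with the largest difference were found among drivers, kinesins and kinases. Cdk1 was between 6.47 and 11.1 CPM in the 9 cDC1 samples and between 1.10 and 3.21 CPM in the 8 cDC2 samples, a log2 fold change of 1.95 ± 0.12 (adjusted p = 2.4e-15), or 3.87-fold. Kif23 was 3.10-fold higher in cDC1s (1.63 ± 0.074, adjusted p = 5.68e-18), and Plk1, with 7.13 to 8.92 CPM in cDC1s and 1.85 to 4.04 CPM in cDC2s, differed by 1.56 ± 0.11 (adjusted p = 1.71e-13). None of these overlapped between the cell types. The checkpoint gene Bub1b (1.33), the ubiquitin-conjugating enzyme gene Ube2c (1.31), Mki67 (1.18 ± 0.098, adjusted p = 1.61e-08), Cdc20 (0.99), Ccnb1 (0.72), Aurkb (0.68), Kif11 (0.59) and Cenpe (0.43) were also higher in cDC1s. Top2a did not follow Mki67, with 38.3 to 69.9 CPM in cDC1s and 48.7 to 67.8 CPM in cDC2s (-0.027 ± 0.096, adjusted p = 0.835). Prc1, Bub1, Foxm1 and Ccnb2 did not pass the test either, and Cenpa was lower in cDC1s (-0.31 ± 0.050, adjusted p = 3.37e-06).

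The replication genes divided by cell type. Higher in cDC1s were Rrm2, the regulated subunit of ribonucleotide reductase (1.65 ± 0.21), E2f8 (1.5 ± 0.18), E2f1 (1.11 ± 0.11), Cdc6 (0.84), Gmnn (0.76), Ccne1 (0.74), Tk1 (0.71), E2f2 (0.54), Cdt1 (0.43), Mcm6 (0.42), Mcm2 (0.39), Mcm10 (0.38) and Cdc45 (0.35). Higher in cDC2s were Ccne2 (-2.08 ± 0.21, adjusted p = 3.3e-09), Uhrf1 (-0.78 ± 0.088), Mcm4 (-0.67 ± 0.040), Cdk2 (-0.40), Rrm1 (-0.32), Mcm5 (-0.24), Pcna (-0.22) and Tyms (-0.21). These values pool the media, and Ccne2 and Mcm5 rose with debris in cDC2s. In WT medium alone, Ccne2 was at 0.809 to 1.07 CPM in cDC1s and 1.46 to 2.36 CPM in cDC2s. Mcm5 overlapped there, at 35.9 to 45.5 CPM and 39.4 to 45.4 CPM. The ribonucleotide reductase subunits thus stood on opposite sides, with Rrm2 between 1.32 and 3.63 CPM in cDC1s and 0.418 and 1.66 CPM in cDC2s. Rrm1 was between 18.8 and 23.9 CPM in cDC1s and 24.3 and 29.1 CPM in cDC2s. The Mcm2 to Mcm7 subunits, which form 1 ring in equal number, were split likewise, with Mcm4 between 62.7 and 72.0 CPM in cDC1s and 100 and 115 CPM in cDC2s, and Mcm6 between 40.1 and 50.1 CPM in cDC1s and 30.3 and 39.4 CPM in cDC2s.

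Mcm3 (-0.12) and Mcm7 (0.017) did not pass the test, although Mcm3 was lower in cDC1s with the replicate block (adjusted p = 0.00371), where 30.8% of all genes were called higher and 29.9% lower, or 60.7% in all. By limma without normalization between samples, where the median of all genes moved to 0.20, the split of called replication genes was 14 higher (77.8%) and 4 lower, against 13 (61.9%) and 8. Pcna, Mcm5 and Cenpa were among the genes lower in cDC1s by edgeR that limma did not call. Leaving out single samples ended the call of Tpx2 in 10 of 17 fits and of Aurka in 8, with adjusted p up to 0.122 and 0.140. It ended that of Mcm10 without cDC1 WT replicate 3, cDC1 BimS replicate 3 or cDC2 RIPK3 replicate 1, with adjusted p up to 0.0566, and of no other gene called.

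**Figure D5:**
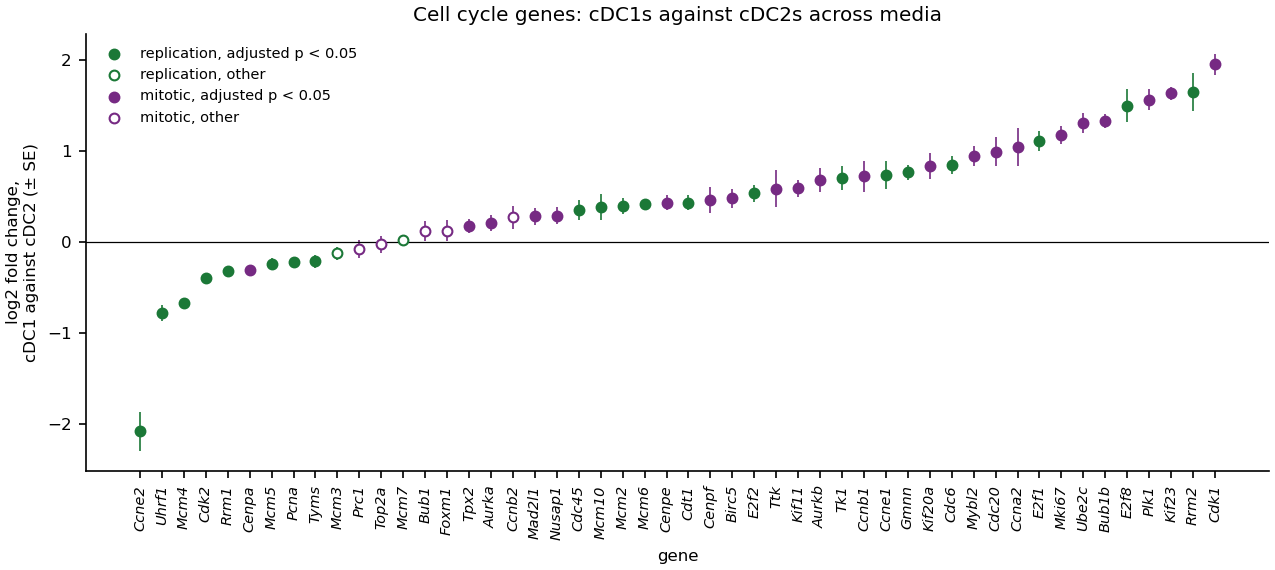
Log2 fold change (± SE) between cDC1s and cDC2s across media for each of the 50 genes, in order of size; filled points have an adjusted p under 0.05, and positive values are higher in cDC1s. The values run from -2.08 for Ccne2 to 1.95 for Cdk1.

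Other genes of the same processes were taken from lists drawn up with earlier results known. Of 40 further replication genes, edgeR called 2 higher and 5 lower in cDC1 BimS, 3 higher and 7 lower in cDC1 RIPK3, 0 higher and 2 lower in cDC2 BimS and 0 higher and 5 lower in cDC2 RIPK3. These are shares of 17.5%, 25%, 5% and 12.5%, beside 13.2%, 16.5%, 7.01% and 7.21% of all genes. Of 52 further mitotic genes, it called 1 higher and 7 lower, 1 higher and 10 lower, 1 higher and 2 lower, and 1 higher and 3 lower in the same order. These are shares of 15.4%, 21.2%, 5.77% and 7.69%, beside the same 13.2%, 16.5%, 7.01% and 7.21% of all genes. In cDC1s these shares were below those of the further replication genes. The medians in cDC1 BimS and RIPK3 were -0.15 and -0.19 for the further replication genes and -0.28 and -0.24 for the further mitotic genes. Of all genes 5.89%, 8.19%, 3.21% and 3.28% were called lower. With the replicate block the further replication genes called numbered 12, 15, 9 and 12 of 40, of which 10, 12, 8 and 11 were lower. The further mitotic genes then numbered 17, 19, 9 and 10 of 52, of which 16, 18, 7 and 8 were lower. The block called 17.9%, 21%, 21.3% and 21.4% of all genes in these comparisons, and 8.51%, 10.7%, 10.3% and 11.4% lower. Timeless, a protein of the replication fork, fell in all 4 comparisons, by 0.59, 0.70, 0.75 and 0.54 on the log2 scale (adjusted p = 1.41e-06, 5.79e-08, 0.00107 and 0.0349). Ncapg2, a condensin subunit, rose in all 4, by 0.56, 0.45, 0.72 and 0.54 (adjusted p = 4.42e-08, 2.23e-06, 0.00112 and 0.0253). Of the mitotic genes that fell, the rule named Spc25 of the kinetochore in cDC1 BimS (-0.40, adjusted p = 0.0159), and in cDC1 RIPK3 the kinetochore scaffold Knl1 (-0.46, adjusted p = 0.0472), the condensin subunit Smc2 (-0.34, adjusted p = 0.000299) and the centriole kinase Plk4 (-0.26, adjusted p = 0.0258). In cDC2s it named Pttg1, securin, in BimS and RIPK3 (-0.66 and -0.53, adjusted p = 0.00146 and 0.0213) and Smc2 in RIPK3 (-0.34, adjusted p = 0.0314). Of these, Smc2 in cDC1s and Pttg1 in cDC2 BimS passed the test whichever sample was left out. Spc25 did not pass without cDC1 WT replicate 1 or 3 or BimS replicate 2 (adjusted p up to 0.0780). Knl1 did not pass without cDC1 WT replicate 2 or 3, BimS replicate 3 or any RIPK3 sample (up to 0.177), nor Plk4 without WT replicate 2 or 3 or RIPK3 replicate 1 or 2 (up to 0.171). In cDC2 RIPK3, Pttg1 did not pass without WT replicate 2 or either RIPK3 sample (up to 0.224), nor Smc2 without these, WT replicate 1 or BimS replicate 2 (up to 0.275). Of the replication genes, it also named the DNA ligase Lig1 in cDC2 RIPK3 (-0.51, adjusted p = 0.0251, and up to 0.254 without WT replicate 2 or either RIPK3 sample).

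In the cDC2 RIPK3 comparison Timeless and Ncapg2 both lost significance without WT replicate 1, RIPK3 replicate 1 or RIPK3 replicate 2, and Timeless also without WT replicate 2, with adjusted p up to 0.428 for Timeless and 0.269 for Ncapg2. In cDC1s the helicase Hells (-0.57 and -0.42) and the kinase activator Dbf4 (-0.37 and -0.50) fell with BimS and RIPK3, and Wdhd1 (0.40 and 0.37) and the histone chaperone Nasp (0.28 and 0.23) rose. Smc2 was lower in cDC1 RIPK3 than in BimS (-0.24, adjusted p = 0.0401), but not by DESeq2, by limma, with filterByExpr or without BimS replicate 2 or 3 or RIPK3 replicate 1 (adjusted p up to 0.331 without 1 sample). Between the cell types, where 59.8% of all genes were called, the rule named Wdhd1 (1.38), Timeless (1.35), Hells (1.29), Knstrn (1.02), Ncapg2 (0.82) and Kif15 (0.74) as higher in cDC1s. It named the replication helicase subunits Gins3 (-1.57) and Gins4 (-0.92), Nasp (-1.04), the condensin subunits Ncaph (-1.36) and Smc4 (-0.77), and Pttg1 (-0.53) as lower, all on the log2 scale with adjusted p of 1.11e-06 or less. The only interaction called among both lists without the block was that of Dbf4 for RIPK3 (-0.47, adjusted p = 0.0442), which did not pass in 13 of 17 fits with 1 sample left out (up to 0.185). With the block, Ncaph was called as well (-0.73, adjusted p = 0.0486).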

How the data were processed

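Bulk RNA-seq was available for 17 samples of sorted cDC1s and cDC2s. The authors trimmed poly-A selected, paired-end reads with SeqPurge, aligned them with STAR 2.7.10a to GRCm39 and counted reads per gene with gensum, and they deposited raw read counts, which were used here. A second table of scaled log2 values was not used. The 148 lines without a gene identifier, 0.0258% to 0.0366% of the counts, entered neither library sizes nor tests. Symbols came from GENCODE M39, which matched 30854 of 31091 identifiers, of which 26 share a symbol. Whether counting used strand is not given in the sources used here, so reads of overlapping antisense genes may be included.

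Genes that were above 0 in 50% or more of a fit's samples were tested with edgeR 4.0.16 (R 4.3.3; TMM scaling, robust quasi-likelihood test, two-sided, Benjamini-Hochberg adjustment over all genes tested, threshold 0.05). The 9 cDC1 and 8 cDC2 samples were fitted apart. Cell types were compared in a fit of all 17 samples with medium as a further term, and responses between cell types as an interaction. Because raw counts call for a count model, limma on log2(count + 1) without further normalization, modelled on the study's analysis, was kept as an alternative. It was read at the same adjusted threshold with no fold cutoff, whereas the study's rule for calling genes combined a fold cutoff with a p-value, so its calls are not those of the study. The fits were tested on simulated, unpaired data with 200 genes changed 2-fold, drawn from genes with more than 50 reads on average. Of these, 196 were recovered for cDC1 RIPK3 against WT, 199 for cDC2 RIPK3, 200 between cell types and 169 for the RIPK3 interaction. Of all calls in these fits 6.67%, 7.44%, 4.76% and 4.52% were false. Recovery of smaller changes, or of changes in genes with fewer reads, was not simulated.

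Labels give replicate numbers. All 16 pairs of samples with the same number within a cell type deviated together from their group means (median r = 0.357, lowest 0.130). Of 32 pairs with different numbers, 4 were over 0.1 (median r = -0.189). Deviations sum to 0 within a group, so the values for different numbers depend in part on those for the same number. The numbers were taken to pair samples, and the block is given beside counts it changes. Precision is set by depth and by 3 samples a group, 2 in cDC2 RIPK3.

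The members, the other gene lists and the markers were chosen with earlier results of these data known. The text names 18 genes in both cell types throughout, every called member where at most 6 were called in a direction and otherwise the 5 largest changes among genes with a mean log2 CPM of 3 or more, and up to 3 rises and 3 falls of the other lists. Further members are named for completeness. Alternatives were DESeq2 1.42.0, DESeq2-type (RLE) size factors, edgeR's filterByExpr, no filter, limma 3.58.1, the replicate block and each of the 17 samples left out. Promoters came from RefSeq (GRCm38.p6), and their coordinates were not mixed with those of GRCm39. Gmnn, Ccna2, Mki67 and Mybl2 could stand in either list.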

Additional observations from a re-analysis of the deposited data

Results flagged for a closer look

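Among the further replication genes, Dbf4, which activates the kinase Cdc7 at origins, passed the interaction test for RIPK3. This was 1 of 40 further replication genes (2.5%), with 0 of 52 further mitotic genes, beside 1.14% of all 19082 genes. Dbf4 was at 24.1, 22.8 and 24.3 CPM in cDC1 WT and at 16.7, 15.4 and 18.3 CPM in cDC1 RIPK3. In cDC2s it was at 37.4, 35.6 and 35.1 CPM in WT and at 35.4 and 35.4 CPM in RIPK3. The log2 fold change was -0.50 in cDC1s and -0.035 in cDC2s, and their difference was -0.47 ± 0.12 (edgeR, adjusted p = 0.0442). The adjusted p was 0.00827 with the replicate block, 0.00928 by DESeq2 and 0.0793 without a filter on low counts. It lay between 0.0266 and 0.185 when single samples were left out, and did not pass in most of those fits.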

How the results depend on the processing

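No gene that passed the test in the main setting changed direction under any alternative run. List medians changed sign only between RIPK3 and BimS and in the interactions, where most were near 0, and the mitotic interaction for RIPK3 went from -0.18 to 0.067 without cDC2 RIPK3 replicate 2. With the replicate block, called replication genes numbered 6 in cDC1 BimS, 8 in cDC1 RIPK3, 6 in cDC2 BimS, 8 in cDC2 RIPK3 and 1 in cDC2 RIPK3 against BimS, and 1 in the interactions for BimS and for RIPK3. With this pairing, mitotic genes numbered 15 in cDC1 BimS, 2 in cDC1 RIPK3 against BimS, 5 in cDC2 BimS, 6 in cDC2 RIPK3 and 1 in cDC2 RIPK3 against BimS. The block ended no call of a member. By limma the replication counts were 1 in cDC1 BimS, 7 in cDC1 RIPK3 and 3 in cDC2 RIPK3, with 1 higher and 1 lower in cDC2 BimS. The mitotic counts by limma were 10 in cDC1 BimS, 14 in cDC1 RIPK3 and 3 in cDC2 RIPK3. Of all genes, limma called 1510 and 2749 of 19513 in cDC1 BimS and RIPK3. In cDC2 BimS and RIPK3 it called 1059 and 1600 of 19239, and 1236 of the latter were lower. For cDC2 RIPK3, the replication count was 2 by DESeq2, with RLE size factors and with filterByExpr, and 3 without a filter. The interactions for BimS and for RIPK3 each had 1 replication gene by DESeq2 and without a filter, which also gave 2 mitotic genes in cDC1 RIPK3 against BimS and 1 in cDC2 BimS.

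With single samples left out, mitotic counts lay between 2 and 12 in cDC1 BimS, 5 and 14 in cDC1 RIPK3, 1 and 2 in cDC1 RIPK3 against BimS, 0 and 1 in cDC2 BimS, 0 and 2 in cDC2 RIPK3 and 20 and 23 between cell types. Replication counts lay between 0 and 4, 0 and 7, 0 and 0, 3 and 3, 0 and 2, and 20 and 22 in the same order, and between 0 and 1 for the BimS and RIPK3 interactions. By limma without normalization the median of all genes moved to -0.12 in cDC1 RIPK3, -0.17 in cDC2 RIPK3 and 0.20 between cell types. Of single-gene values, 1427 kept their side of the threshold under the alternatives other than left-out samples, 37 gained significance and 51 lost it, and with samples left out these were 2525, 10 and 195. Low counts limit precision, as for Ccne2 with 27 to 46 reads in cDC2 WT. The cause of these changes was not tested.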

Other observations

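Regulators of G1 decide whether a cell goes on to replicate, and some of them also changed with debris. Of 35 such genes, edgeR called 3 higher and 11 lower in cDC1 BimS, 7 higher and 9 lower in cDC1 RIPK3, 4 higher and 4 lower in cDC2 BimS, and 4 higher and 5 lower in cDC2 RIPK3. These are shares of 40%, 45.7%, 22.9% and 25.7%, beside 13.2%, 16.5%, 7.01% and 7.21% of all genes. With the replicate block 18, 19, 18 and 17 of the 35 were called, of which 13, 11, 11 and 11 were lower, beside 17.9%, 21%, 21.3% and 21.4% of all genes. The list was chosen with earlier results known. Cdkn2b, an inhibitor of Cdk4 and Cdk6, was at 2.74, 3.15 and 3.19 CPM in cDC1 WT, at 14.7, 10.6 and 13.6 CPM in BimS and at 9.86, 9.74 and 13.5 CPM in RIPK3. It rose by 2.09 ± 0.15 (adjusted p = 4.33e-12) and 1.86 ± 0.16 (adjusted p = 8.64e-11) on the log2 scale. In cDC2s Cdkn2b was at 10.9, 12.6 and 14.7 CPM in WT, at 36.6, 31.5 and 41.9 CPM in BimS and at 32.5 and 27.3 CPM in RIPK3, with rises of 1.53 ± 0.13 (adjusted p = 1.08e-07) and 1.22 ± 0.14 (adjusted p = 4.84e-06).

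Genes of the D cyclins, which activate Cdk4 and Cdk6, were among those that fell. Ccnd2 in cDC2s was at 239, 188 and 190 CPM in WT, at 130, 103 and 98.6 CPM in BimS and at 90.8 and 74.9 CPM in RIPK3, and fell by 0.90 ± 0.12 (adjusted p = 0.000209) and 1.32 ± 0.14 (adjusted p = 1.78e-05). In cDC1s it was at 211, 161 and 175 CPM in WT and at 122, 88.9 and 72.9 CPM in RIPK3, a fall of 0.94 ± 0.22 (adjusted p = 0.0333), which lost significance without any 1 of 7 samples (all 3 of WT, RIPK3 replicates 2 and 3, and BimS replicates 2 and 3), with adjusted p up to 0.113. Ccnd1 was at 26.7, 30 and 26.5 CPM in cDC1 WT, at 17.9, 20.7 and 19.2 CPM in BimS and at 16.3, 17.7 and 16.1 CPM in RIPK3, and fell by 0.52 and 0.73 (adjusted p = 6.41e-06 and 1.02e-08). Tfdp2, a partner of E2F factors, fell in cDC1s by 0.77 and 1.02 (adjusted p = 9.04e-09 and 1.85e-11).

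The transcriptional repressor E2f6 rose in cDC1s by 0.56 and 0.37 with BimS and RIPK3 (adjusted p = 1.73e-05 and 0.00418) and in cDC2 BimS by 0.40 (adjusted p = 0.0190), there not without WT replicate 2 or any BimS sample (up to 0.0752). Lin54 belongs to the MuvB complex, which takes part both in repressing cell cycle genes in resting cells and in switching on mitotic genes in G2. Lin54 rose by 0.19 and 0.32 in cDC1s (adjusted p = 0.0465 and 0.000276) and by 0.47 in cDC2 RIPK3 (adjusted p = 0.00615). Its call did not hold in cDC1 BimS without WT replicate 1 or 3, BimS replicate 2 or 3 or RIPK3 replicate 2 (up to 0.285), nor in cDC2 RIPK3 without either RIPK3 sample (up to 0.106). The Cdk inhibitor Cdkn1a rose in cDC2 RIPK3 by 0.38 (adjusted p = 0.00577), again not without either RIPK3 sample (up to 0.0774), and the stress gene Gadd45b rose in cDC2 BimS by 0.34 (adjusted p = 0.0254), not without WT replicate 1 or 2, BimS replicate 1 or 3 or RIPK3 replicate 1 (up to 0.169).

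Ccng2, a cyclin of arrested cells, fell in cDC1 BimS by 0.43 (adjusted p = 7.13e-06) and in cDC2 BimS by 0.37 (adjusted p = 0.0258), the latter not without WT replicate 1 or 2 or BimS replicate 2 or 3 (up to 0.159). Btg2, an antiproliferative gene, fell in cDC2 BimS by 0.26 (adjusted p = 0.0383), not without WT replicate 2, any BimS sample or either RIPK3 sample (up to 0.188). In cDC2 RIPK3 the Cdk inhibitor Cdkn2c (-0.50, adjusted p = 0.0397) and the pocket protein Rbl2 (-0.38, adjusted p = 0.0422) were lower. Both calls ended without WT replicate 1, BimS replicate 1 or 2 or either RIPK3 sample, that of Cdkn2c also without WT replicate 3 and that of Rbl2 without WT replicate 2 (up to 0.414 and 0.516). Against cDC1 BimS, cDC1 RIPK3 had higher Btg2 (0.31, adjusted p = 3.21e-05), Cdkn1a (0.16, adjusted p = 0.0344) and Cdkn1b (0.16, adjusted p = 0.0432) and lower Rbl1 (-0.31, adjusted p = 0.00446). Cdkn1a was not called there without WT replicate 1, BimS replicate 2 or 3 or RIPK3 replicate 2, and Cdkn1b held only without RIPK3 replicate 3 (up to 0.232 and 0.147).

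Between cell types, Tfdp2 (2.67), Ccnd1 (1.95) and Ccnd3 (1.88) were higher in cDC1s and Cdkn2b (-1.62), Gadd45b (-1.19) and Ccng1 (-0.70) lower on the log2 scale, with adjusted p of 1.88e-11 or less, where 59.8% of all genes were called.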
